A study of Mus musculus with 14 samples.

Results

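The voltage-gated calcium and sodium channel genes of mouse heart and hippocampus were described at 2 ages. They were chosen by symbol in the probe annotation, as every gene whose symbol starts with Cacna, Cacnb or Cacng, or is Scn followed by a number and a or b. Probe sets that name 1 gene gave 85 probe sets and 35 genes, 24 of calcium channels and 11 of sodium channels, among 18194 genes in all. Each gene was given the value of its probe set with the highest mean over the 14 arrays, and 26 of the 35 had several probe sets. Cacna1i, Cacnb3 and Scn4a were not analysed here.

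All samples were C57BL/6 mouse tissue, with no treatment or altered gene named in the labels. Adult hippocampus and adult heart came as purchased total RNA of males 10 weeks old, each with 2 biological replicates of 2 technical arrays, averaged here. Pup hippocampus and pup heart came from animals 7 days old, with 3 replicates and 1 array each, as mRNA isolated from the tissue, and their sex was not given. Age can therefore not be told apart from RNA source, preparation and sex, and as the labels do not say that the adult replicates were separate animals, p-values may measure partly technical spread. Levels are log2 values, so that a difference of 1 is a doubling, and levels were compared between samples and never between genes. Detection was not examined, so a fold is the ratio of the deposited values whether or not the lower group was above background. In bulk tissue, fewer cells of a type and less RNA per cell cannot be told apart.

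Voltage-gated channels open when the membrane depolarizes, and each has a pore-forming alpha subunit that carries the voltage sensor. Calcium channels add an intracellular beta and an extracellular alpha2delta subunit, which bring the pore to the membrane and set its gating, while most gamma proteins of brain serve AMPA glutamate receptors instead. Sodium channels carry the upstroke of the action potential in heart and neurons, and their beta subunits are small membrane proteins that tune gating and anchor the pore. L-type calcium current couples excitation to contraction in heart, P/Q- and N-type currents trigger transmitter release, and T-type currents open near rest and support pacemaking and burst firing.

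The labelled tissues carried their markers on the mean of each list, though not every neuron gene separated them. The mean level of 10 cardiomyocyte genes ranged over 9.08 to 9.10 in adult hippocampus and 9.36 to 11.2 in pup hippocampus, against 13.9 to 14.3 in adult heart and 15.0 to 15.4 in pup heart. For 10 neuron genes the mean level ranged over 11.5 to 11.8 in adult hippocampus and 12.7 to 12.9 in pup hippocampus. It ranged over 9.84 to 9.91 in adult heart and 10.0 to 10.2 in pup heart. Of these 10, 6 were called higher in hippocampus in adults and 6 in pups, beside 19.7% and 15.7% of all genes called. At each age 4 were not called. Neurod2, for 1, read 15.01 and 15.06 in adult heart against 15.09 and 15.10 in adult hippocampus. Pup hippocampus replicate 1 stood apart, at 11.19 for the mean of the heart genes beside 10.03 in replicate 2 and 9.36 in replicate 3. Its cardiac actin gene Actc1 read 14.76, beside 12.49 and 10.31. Without replicate 1, 6 of the 9 channel genes called between pup tissues and 3 of the 4 called with age in hippocampus were still called. The share of all genes still called is not given here, and the part of heart RNA in that sample's values was not tested. Samples correlated at r = 0.931 to 0.968 within groups and at most 0.918 between groups, across genes, which are not independent replicates. Each sample's median level lay between 9.70 and 9.93, while the 18 hybridization controls averaged 10.8 in adult hippocampus and 10.7 in adult heart, against 13.2 in pup hippocampus and 13.2 in pup heart. These controls moved with age in both tissues, and their part in the age results was not tested.

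The genes occur in groups along the chromosomes. In the RefSeq annotation of GRCm38.p6, Scn1a, Scn9a and Scn7a follow each other on chromosome 2, with Scn3a and Scn2a next to each other close by. Scn2b and Scn4b are neighbours on chromosome 9, as are Scn10a and Scn11a. Scn4b had the largest age difference on the probe sets used and Scn2b lies beside it, while Scn1a and Scn2a are alpha subunit genes whose probe sets gave different tissue differences. The 250 bases before the annotated starts of these 4 genes are therefore shown 5′ to 3′, from the RefSeq sequences of GRCm38.p6, with each CG dinucleotide in capitals.
Scn4b, chr9:45138374-45138623, plus strand: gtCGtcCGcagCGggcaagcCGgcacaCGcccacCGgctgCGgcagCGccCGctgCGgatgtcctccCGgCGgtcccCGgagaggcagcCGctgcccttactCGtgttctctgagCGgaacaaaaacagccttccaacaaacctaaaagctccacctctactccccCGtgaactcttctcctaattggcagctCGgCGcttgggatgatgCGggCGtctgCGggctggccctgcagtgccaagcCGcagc
Scn2b, chr9:45117626-45117875, plus strand: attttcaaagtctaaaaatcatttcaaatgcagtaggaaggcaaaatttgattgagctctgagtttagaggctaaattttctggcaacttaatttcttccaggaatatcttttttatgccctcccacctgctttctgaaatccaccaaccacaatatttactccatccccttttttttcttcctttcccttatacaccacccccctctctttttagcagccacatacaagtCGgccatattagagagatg
Scn1a, chr2:66440838-66441087, minus strand: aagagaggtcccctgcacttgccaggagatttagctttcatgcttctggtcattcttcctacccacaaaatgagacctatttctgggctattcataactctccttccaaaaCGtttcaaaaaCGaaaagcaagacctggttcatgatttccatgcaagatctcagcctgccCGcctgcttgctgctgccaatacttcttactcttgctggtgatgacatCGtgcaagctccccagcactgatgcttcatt
Scn2a first start, chr2:65620519-65620768, plus strand: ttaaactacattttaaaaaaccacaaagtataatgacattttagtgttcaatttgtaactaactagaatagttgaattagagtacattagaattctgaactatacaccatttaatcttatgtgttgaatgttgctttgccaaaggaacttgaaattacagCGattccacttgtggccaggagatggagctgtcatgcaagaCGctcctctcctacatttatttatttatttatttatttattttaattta
Scn2a second start, chr2:65668436-65668685, plus strand: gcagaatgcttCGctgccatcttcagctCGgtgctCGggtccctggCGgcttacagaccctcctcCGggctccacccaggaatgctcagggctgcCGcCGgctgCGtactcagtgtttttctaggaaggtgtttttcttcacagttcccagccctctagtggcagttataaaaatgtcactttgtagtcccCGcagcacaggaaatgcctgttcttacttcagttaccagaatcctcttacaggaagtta
The dinucleotide CG reads the same on both strands. It occurred 23 times before Scn4b, a number reached by 13.3% of all 32851 annotated windows of this length, and 1 time before its neighbour Scn2b, a number reached by 92.1%. Before Scn1a it occurred 4 times (62.2% of windows with at least as many), and before the first and second Scn2a starts 2 and 9 times (81.2% and 40.3%). The median was 6 over all windows and 8 over the 37 annotated starts of the 27 channel genes that had a sequence. These counts describe the windows only, and no binding or methylation was measured.

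In heart, 10 of the 35 channel genes differed between adults and pups, 5 higher and 5 lower in adults. The 28.6% called stood beside 20.6% of all genes called in that comparison, and the median difference was -0.01 for the channel genes and 0.09 for all genes. Higher in adult heart were Cacnb4, Cacna1e, Scn4b, Scn1a and Cacna1f. Lower in adult heart were Cacna2d3, Cacna1g, Scn9a, Cacnb2 and Cacna1d. Several of these calls were lost without 1 adult heart, as given gene by gene below. Without 1 pup heart the count was up to 9. The share of all genes called in that run is not given, so this count does not compare channel genes with other genes.

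In hippocampus, 4 channel genes differed with age, a share of 11.4% beside 16.1% of all genes. Scn4b, Scn1a and Cacna1h were higher and Cacna1g was lower in adult hippocampus. The median difference was 0.29 for the channel genes and 0.10 for all genes. Some of these calls were lost without 1 sample, as given gene by gene below. Scn4b, Scn1a and Cacna1g were called in the same direction in both tissues.

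**Figure D1:**
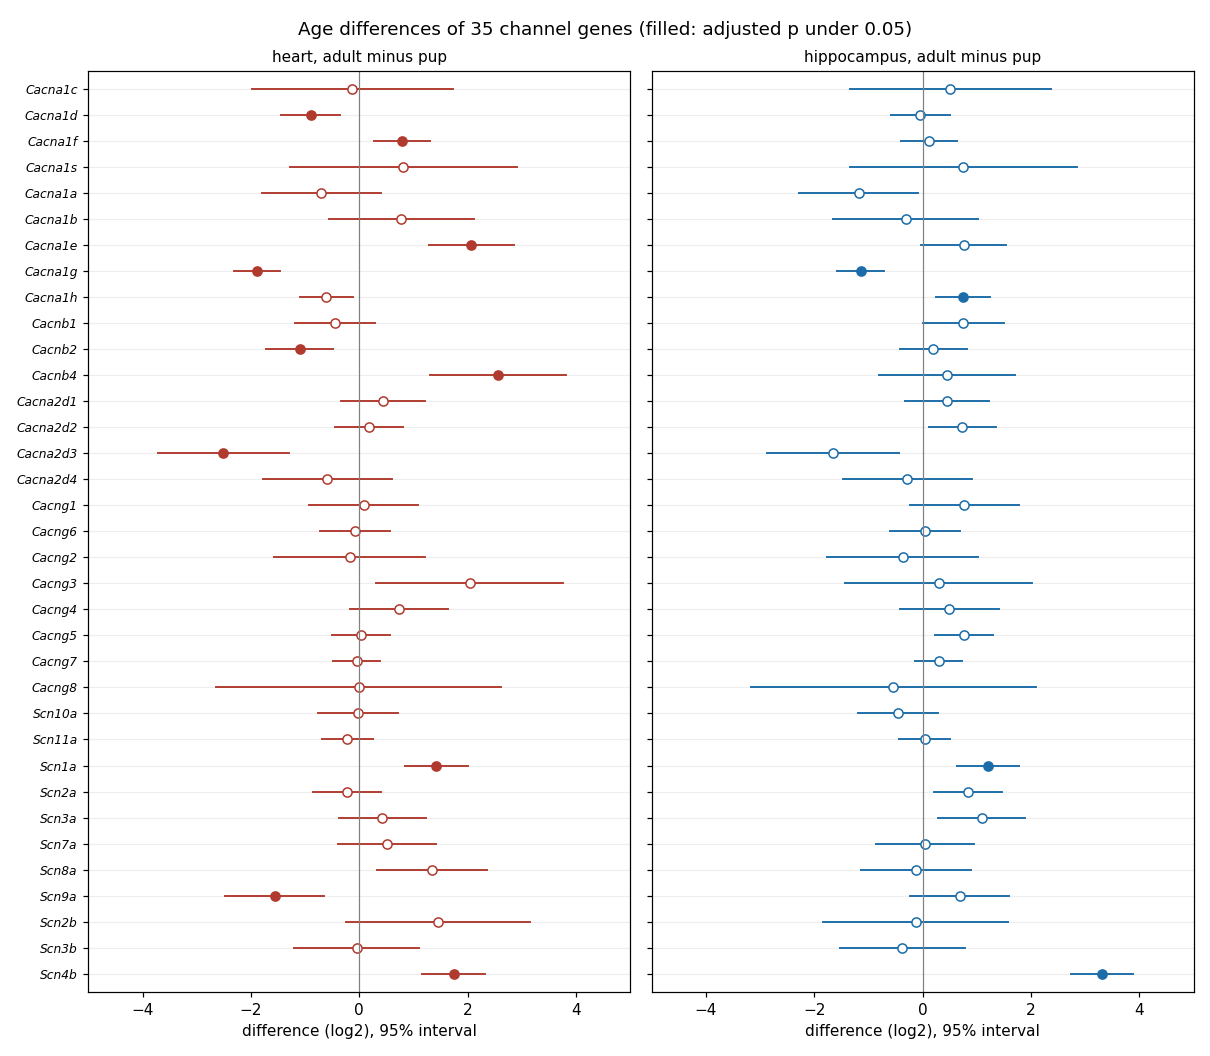
Adult minus pup differences on the log2 scale of the 35 channel genes in heart (left) and hippocampus (right), with points for the estimates, lines for 95% intervals and filled points for genes with an adjusted p under 0.05. In heart 5 filled points lie on each side of 0, and in hippocampus Scn4b stands farthest out at 3.31.

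Between adult tissues, 8 channel genes were called, all higher in hippocampus than in heart. The called share was 22.9%, beside 19.7% of all genes, and the median difference was 0.53 for the channel genes and -0.03 for all genes. Between pup tissues, 8 were higher in hippocampus and Cacnb2 was lower, a share of 25.7% beside 15.7% of all genes, with medians of 0.32 and -0.10. Cacna1g, Cacna1h, Cacna2d2 and Cacng5 were higher in hippocampus at both ages. Some calls between adult tissues were lost without 1 sample, as given gene by gene below. The pup count was 4 without pup hippocampus replicate 2 and 4 without pup hippocampus replicate 3. The share of all genes called in those runs is not given, so these counts do not compare channel genes with other genes.

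**Figure D2:**
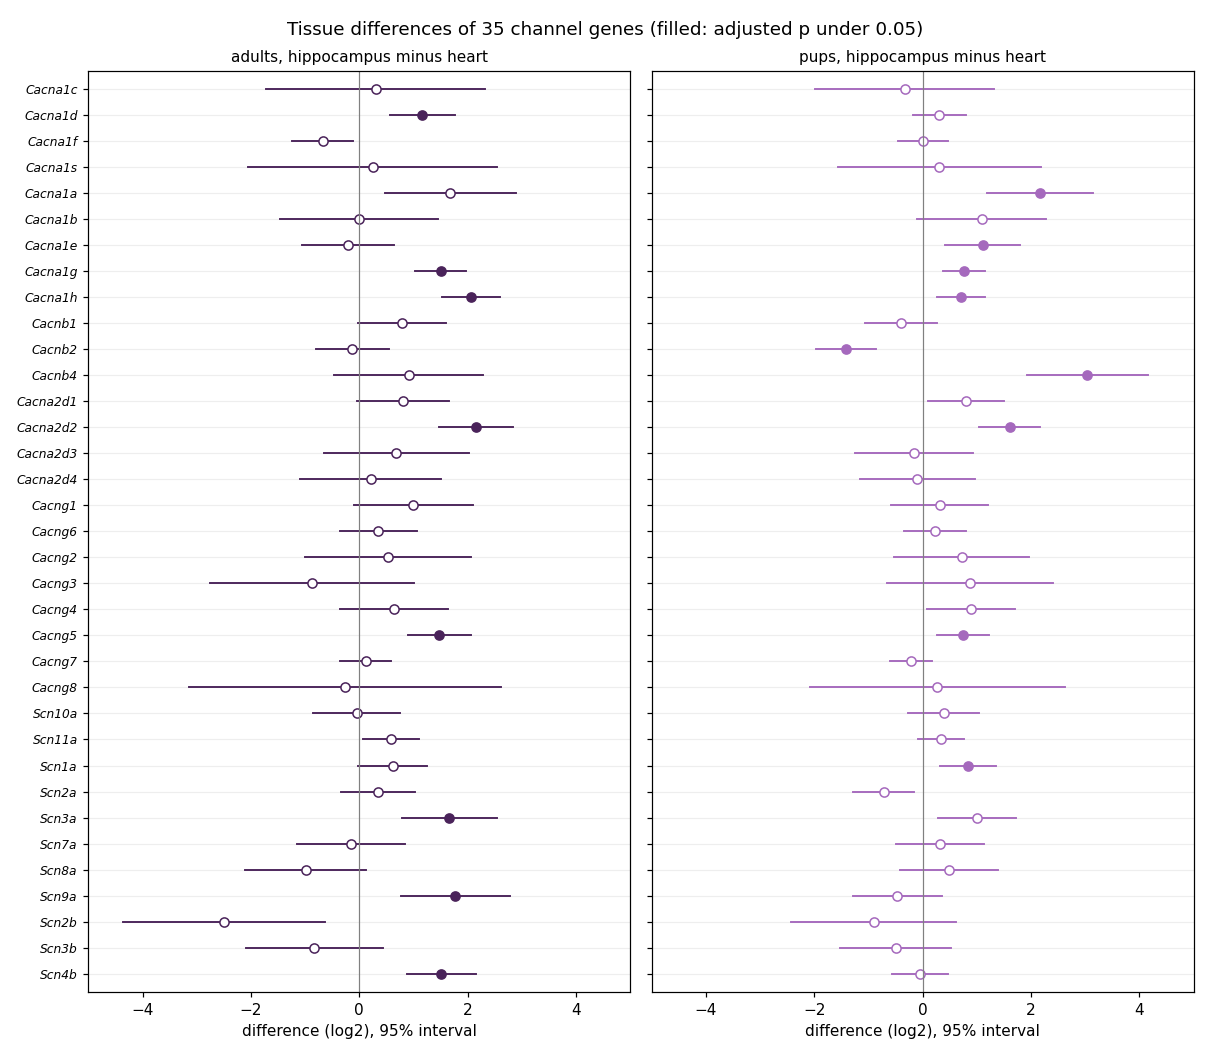
Hippocampus minus heart differences on the log2 scale of the 35 channel genes in adults (left) and pups (right), with points for the estimates, lines for 95% intervals and filled points for genes with an adjusted p under 0.05. All 8 filled points in adults lie above 0, while in pups Cacnb4 reaches 3.04 and Cacnb2 lies at -1.42.

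Of the 4 L-type alpha subunits, 2 were called with age in heart, 50% beside 20.6% of all genes. Between adult tissues 1 was called, 25% beside 19.7%, and none with age in hippocampus or between pup tissues. Cacna1d, which forms the L-type channel of pacemaker cells and of many neurons, was 14.90 and 14.69 in adult hippocampus and 14.89, 14.71 and 14.92 in pup hippocampus, against 13.64 and 13.63 in adult heart and 14.75, 14.14 and 14.70 in pup heart. Both adult hearts lay below all other samples. The gene was lower in adult heart than in pup heart, with a difference of -0.90 (SE 0.24, adjusted p = 0.0308) and higher in adult hippocampus than in adult heart by 1.16 (SE 0.27, adjusted p = 0.0157), while the age difference in hippocampus was -0.04 (95% interval -0.59 to 0.51, adjusted p = 0.930). The heart call was lost without adult heart replicate 1 or 2 or pup heart replicate 1 or 3 (adjusted p = 0.0632 to 0.137), and the adult tissue call without adult heart replicate 1 or 2 or adult hippocampus replicate 1 or 2 (adjusted p = 0.0586 to 0.0890). Its only other probe set gave 0.55 in the heart comparison and -0.50 between adult tissues, so both directions rest on the probe set used.

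Cacna1f, the L-type subunit of photoreceptors, was 9.32 and 9.32 in adult hippocampus and 9.12, 9.23 and 9.27 in pup hippocampus, against 10.06 and 9.91 in adult heart and 9.51, 9.18 and 8.92 in pup heart. Adult heart was above every other sample, and the rise over pup heart was 0.78 (SE 0.23, adjusted p = 0.0396), a call lost without adult heart replicate 1 or 2 or pup heart replicate 2 or 3 (adjusted p = 0.0611 to 0.194). Cacna1c encodes the main L-type subunit of heart muscle and was 11.36 and 10.38 in adult hippocampus and 10.72, 8.72 and 11.63 in pup hippocampus, against 11.34 and 9.79 in adult heart and 10.22, 11.44 and 10.42 in pup heart. Groups overlapped throughout on this probe set, and its 4 differences lay between -0.33 and 0.51 (SE 0.73 to 0.90), with the lowest adjusted p, 0.711, in the age comparison in hippocampus. Another Cacna1c probe set was called lower in hippocampus than in heart at both ages, as given further on. Cacna1s, the voltage sensor of skeletal muscle, was 12.62 and 12.80 in adult hippocampus and 11.62, 11.71 and 12.56 in pup hippocampus, against 14.52 and 10.40 in adult heart and 11.74, 11.60 and 11.61 in pup heart. The 2 adult hearts differed by 4.12 and spanned all other samples, and the 4 differences lay between 0.25 and 0.81 (SE 0.83 to 1.02), with the lowest adjusted p, 0.584, in the age comparison in heart. The mean level of 7 skeletal muscle genes was 7.81 to 7.86 in adult heart, against 7.30 to 7.56 in pup heart. In that comparison 1 of the 7 was called, 14.3% beside 20.6% of all genes.

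Among the subunits of P/Q-, N- and R-type channels, which serve transmitter release and dendritic calcium entry, Cacna1e of the R-type changed in heart. It was 11.18 and 9.89 in adult hippocampus and 9.61, 9.74 and 9.99 in pup hippocampus, against 10.72 and 10.76 in adult heart and 8.56, 8.69 and 8.77 in pup heart. On the mean of their arrays, both adult hearts lay 1.96 or more above all pup hearts. The single arrays read 9.61 and 11.84 in adult heart replicate 1 and 10.16 and 11.37 in replicate 2, a wider spread than that of the means. The rise in adult heart was 2.07 (SE 0.35, adjusted p = 0.00452), a 4.21-fold difference whose call held without each sample in turn, although the 2 arrays of adult heart replicate 1 differed by 2.23. In pups the gene was also higher in hippocampus than in heart, by 1.11 (SE 0.31, adjusted p = 0.0404), but that call was lost without pup heart replicate 1, 2 or 3 or pup hippocampus replicate 1, 2 or 3 (adjusted p = 0.0551 to 0.122). Its only other probe set, 1421692_at, gave 0.12 (adjusted p = 0.856) for age in heart and -0.93 (adjusted p = 0.0943) between pup tissues, and the mean over both gave 0.090 (adjusted p = 0.838) between pup tissues, so the direction there rests on the probe set used.

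Cacna1a, the P/Q-type subunit of most fast synapses, was 11.57 and 11.74 in adult hippocampus and 13.02, 13.15 and 12.33 in pup hippocampus, against 10.39 and 9.55 in adult heart and 10.78, 9.76 and 11.46 in pup heart. Every pup hippocampus lay above every other sample once the arrays of each adult replicate were averaged. The 2 arrays read 10.47 and 12.67 in adult hippocampus replicate 1, and 10.83 and 12.65 in replicate 2. The higher array of each lay above the lowest pup hippocampus at 12.33. Between pup tissues the difference was 2.17 (SE 0.44, adjusted p = 0.00919), and between adult tissues it was 1.68 (SE 0.53, adjusted p = 0.0548), just over the threshold. The other 3 probe sets of the gene lay between -0.13 and 1.55 between pup tissues and none was called. With age the gene differed by -1.18 (SE 0.49, adjusted p = 0.133) in hippocampus and by -0.70 (SE 0.49, adjusted p = 0.352) in heart. Cacna1b, the N-type subunit, was 14.16 and 15.04 in adult hippocampus and 14.35, 15.19 and 15.21 in pup hippocampus, against 14.85 and 14.37 in adult heart and 15.06, 12.90 and 13.53 in pup heart. The groups overlapped, and the 4 differences lay between -0.31 and 1.09 (SE 0.53 to 0.65), with the lowest adjusted p, 0.217, in the tissue comparison in pups.

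The T-type genes had closely spaced replicates. Cacna1g, a T-type subunit of thalamic and pacemaker cells, was 10.24 and 10.17 in adult hippocampus and 11.29, 11.36 and 11.40 in pup hippocampus, against 8.73 and 8.67 in adult heart and 10.66, 10.49 and 10.61 in pup heart. No 2 groups overlapped: pup hippocampus was highest, adult heart lowest, and both adult tissues lay below the same tissue of pups. Relative to pups it was lower in adult heart, with a difference of -1.89 (SE 0.19, adjusted p = 0.000679), 3.70-fold, and in adult hippocampus, with a difference of -1.15 (SE 0.19, adjusted p = 0.00598), 2.21-fold, and both calls held without each sample in turn. In hippocampus it was higher than in heart by 1.51 (SE 0.21, adjusted p = 0.00167) in adults and by 0.76 (SE 0.17, adjusted p = 0.0151) in pups, the pup call being lost without pup hippocampus replicate 2 or 3 (adjusted p = 0.0515 to 0.0570).

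Cacna1h, the second T-type subunit, was 10.07 and 10.21 in adult hippocampus and 9.31, 9.38 and 9.49 in pup hippocampus, against 8.04 and 8.11 in adult heart and 8.41, 8.73 and 8.90 in pup heart. The groups did not overlap and ran in the order adult hippocampus, pup hippocampus, pup heart and adult heart. In adult hippocampus it was higher than in pup hippocampus by 0.74 (SE 0.22, adjusted p = 0.0491), whereas the heart difference was -0.60 (SE 0.22, adjusted p = 0.0827). The heart age difference less the hippocampal one was -1.35 (SE 0.31, adjusted p = 0.0494). This was the only channel gene whose age differences were called different between tissues, 2.86% of the 35 beside 3.68% of all genes, and the call was lost without adult heart replicate 1 or 2, pup heart replicate 2 or 3, adult hippocampus replicate 1 or 2 or pup hippocampus replicate 1, 2 or 3 (adjusted p = 0.0529 to 0.153). The hippocampal age call was lost without adult hippocampus replicate 1 or 2 or pup hippocampus replicate 1, 2 or 3 (adjusted p = 0.0905 to 0.212). The only other probe set of the gene, 1422710_a_at, turned the hippocampal age difference round, with -0.81 (adjusted p = 0.0623), and gave -0.10 (adjusted p = 0.907) for the difference of age differences. Between adult tissues the difference was 2.06 (SE 0.24, adjusted p = 0.000773), 4.17-fold, and held without each sample in turn, and between pup tissues it was 0.71 (SE 0.20, adjusted p = 0.0379), lost without pup heart replicate 1 or 2 or pup hippocampus replicate 1, 2 or 3 (adjusted p = 0.0650 to 0.110). On 1422710_a_at these were 0.32 (adjusted p = 0.461) and 0.22 (adjusted p = 0.586).

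Of the cytoplasmic beta subunits, Cacnb4 and Cacnb2 moved in opposite directions in heart on the probe sets used. Cacnb4, a beta subunit of brain whose loss causes ataxia and seizures in mice, was 12.05 and 12.28 in adult hippocampus and 11.62, 11.65 and 11.89 in pup hippocampus, against 12.44 and 10.06 in adult heart and 8.43, 8.89 and 8.71 in pup heart. Pup heart lay below every other sample, and the 2 adult hearts differed by 2.38 from each other. Adult heart was higher than pup heart by 2.57 (SE 0.56, adjusted p = 0.0128), and by 1.38 (adjusted p = 0.0368) without adult heart replicate 1, whose 2 arrays differed by 2.19. Pup hippocampus was higher than pup heart by 3.04 (SE 0.50, adjusted p = 0.00307), 8.24-fold and the largest tissue difference among the 35 genes on the probe sets used, while between adult tissues the difference was 0.92 (SE 0.61, adjusted p = 0.341).

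Cacnb2, the main beta subunit of heart muscle, was 9.12 and 9.33 in adult hippocampus and 9.00, 8.96 and 9.14 in pup hippocampus, against 9.27 and 9.44 in adult heart and 10.21, 10.19 and 10.96 in pup heart. All 3 pup hearts lay above every other sample. The gene was lower in adult heart than in pup heart, with a difference of -1.10 (SE 0.27, adjusted p = 0.0222), a call lost without adult heart replicate 1 or 2 (adjusted p = 0.0848 to 0.134), and lower in pup hippocampus than in pup heart, with a difference of -1.42 (SE 0.24, adjusted p = 0.00417). Between adult tissues it differed by -0.13 (95% interval -0.80 to 0.55, adjusted p = 0.821). Its only other probe set, 1452476_at, gave 0.21 (adjusted p = 0.713) for age in heart and -0.54 (adjusted p = 0.289) between pup tissues. Cacnb1, shared by skeletal muscle and brain, was not called, and its 4 differences lay between -0.45 and 0.80 (SE 0.29 to 0.36), with the lowest adjusted p, 0.154, in the age comparison in hippocampus.

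The alpha2delta subunits lie outside the cell and raise the number of channels at the membrane. Cacna2d2 was 11.23 and 11.46 in adult hippocampus and 10.46, 10.87 and 10.50 in pup hippocampus, against 9.35 and 9.03 in adult heart and 9.25, 8.58 and 9.19 in pup heart. All hippocampus samples lay above all hearts. Hippocampus was higher than heart by 2.16 (SE 0.30, adjusted p = 0.00173) in adults and by 1.60 (SE 0.25, adjusted p = 0.00218) in pups, 4.46-fold and 3.04-fold, and both calls held without each sample in turn. They rest on this probe set: 1426185_at gave -0.77 (adjusted p = 0.152) in adults and -0.64 (adjusted p = 0.178) in pups, 1451955_a_at gave -0.24 (adjusted p = 0.722) and 0.04 (adjusted p = 0.960), and with the mean over the 3 probe sets both calls were lost (0.38 with an adjusted p of 0.201 in adults, 0.33 with an adjusted p of 0.195 in pups). Cacna2d3 was 10.39 and 9.90 in adult hippocampus and 11.64, 11.87 and 11.90 in pup hippocampus, against 9.77 and 9.14 in adult heart and 11.19, 13.23 and 11.47 in pup heart. Adults lay below pups in each tissue. The difference in adult heart was -2.51 (SE 0.54, adjusted p = 0.0123), a call lost without adult heart replicate 1 or 2 (adjusted p = 0.0535 to 0.0948), and the hippocampal difference was -1.66 (SE 0.54, adjusted p = 0.0670).

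Cacna2d1, the alpha2delta subunit of skeletal and heart muscle and a target of gabapentin, was 12.50 and 13.00 in adult hippocampus and 12.85, 12.27 and 11.79 in pup hippocampus, against 11.92 and 11.98 in adult heart and 11.87, 11.20 and 11.45 in pup heart. Adult hippocampus lay above both heart groups, yet the 4 differences lay between 0.44 and 0.80 (SE 0.31 to 0.38), with the lowest adjusted p, 0.121, in the tissue comparison in pups. Cacna2d4 had 4 differences between -0.59 and 0.21 (SE 0.47 to 0.58), with the lowest adjusted p, 0.475, in the age comparison in heart, and none was called.

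The 6 gamma proteins that bind AMPA receptors, known as transmembrane AMPA receptor regulatory proteins, included 1 gene called on the probe set used. Cacng5 was 11.14 and 10.88 in adult hippocampus and 10.23, 10.46 and 10.04 in pup hippocampus, against 9.54 and 9.51 in adult heart and 9.30, 9.77 and 9.40 in pup heart. All hippocampus samples lay above all hearts. The tissue difference was 1.48 (SE 0.26, adjusted p = 0.00478) in adults, held without each sample in turn, and 0.75 (SE 0.21, adjusted p = 0.0422) in pups, lost without pup heart replicate 1 or 3 or pup hippocampus replicate 1, 2 or 3 (adjusted p = 0.0573 to 0.148). Between ages in hippocampus it was 0.76 (SE 0.24, adjusted p = 0.0585). The other Cacng5 probe set gave 0.54 (adjusted p = 0.298) between adult tissues and 0.69 (adjusted p = 0.130) between pup tissues.

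The other 5 proteins of this kind were not called on the probe sets used, although Cacng2 and Cacng4 were called between pup tissues on another one, as given further on. Cacng2 encodes stargazin, which brings AMPA receptors to the synapse, and was 12.39 and 13.12 in adult hippocampus and 11.94, 14.08 and 13.35 in pup hippocampus, against 12.24 and 12.22 in adult heart and 12.01, 11.91 and 13.29 in pup heart. Cacng3 was 10.31 and 9.08 in adult hippocampus and 8.49, 8.64 and 11.09 in pup hippocampus, against 10.78 and 10.36 in adult heart and 8.19, 8.12 and 9.29 in pup heart. Cacng8, an AMPA receptor partner of hippocampus, was 11.41 and 8.86 in adult hippocampus and 12.35, 9.05 and 10.62 in pup hippocampus, against 10.63 and 10.16 in adult heart and 8.48, 11.48 and 11.25 in pup heart. Replicates of Cacng8 lay more than 2 apart on the log2 scale in 3 of the 4 groups. The 4 differences of Cacng2 lay between -0.37 and 0.72 (SE 0.55 to 0.68), with the lowest adjusted p, 0.447, in the tissue comparison in pups. For Cacng3 they lay between -0.87 and 2.04 (SE 0.68 to 0.83), with the lowest adjusted p, 0.0916, in the age comparison in heart, and both adult hearts were above all pup hearts. For Cacng8 they lay between -0.54 and 0.27 (SE 1.04 to 1.28), with the lowest adjusted p, 0.793, in the age comparison in hippocampus. Cacng4 and Cacng7 had no called difference on the probe sets used either, and Cacng7 read 15.28 to 15.67 in all samples, close to the array maxima of 15.98 and above, where a difference could be hidden. Of the muscle gamma subunits, Cacng1 was 10.02 and 11.46 in adult hippocampus and 9.64, 10.05 and 10.22 in pup hippocampus, against 9.33 and 10.14 in adult heart and 9.33, 9.60 and 10.04 in pup heart. Its 4 differences lay between 0.08 and 1.00 (SE 0.40 to 0.49), with the lowest adjusted p, 0.193, in the tissue comparison in adults, and those of Cacng6 lay between -0.08 and 0.35 (SE 0.26 to 0.31), with the lowest adjusted p, 0.489, in the tissue comparison in adults.

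**Figure D3:**
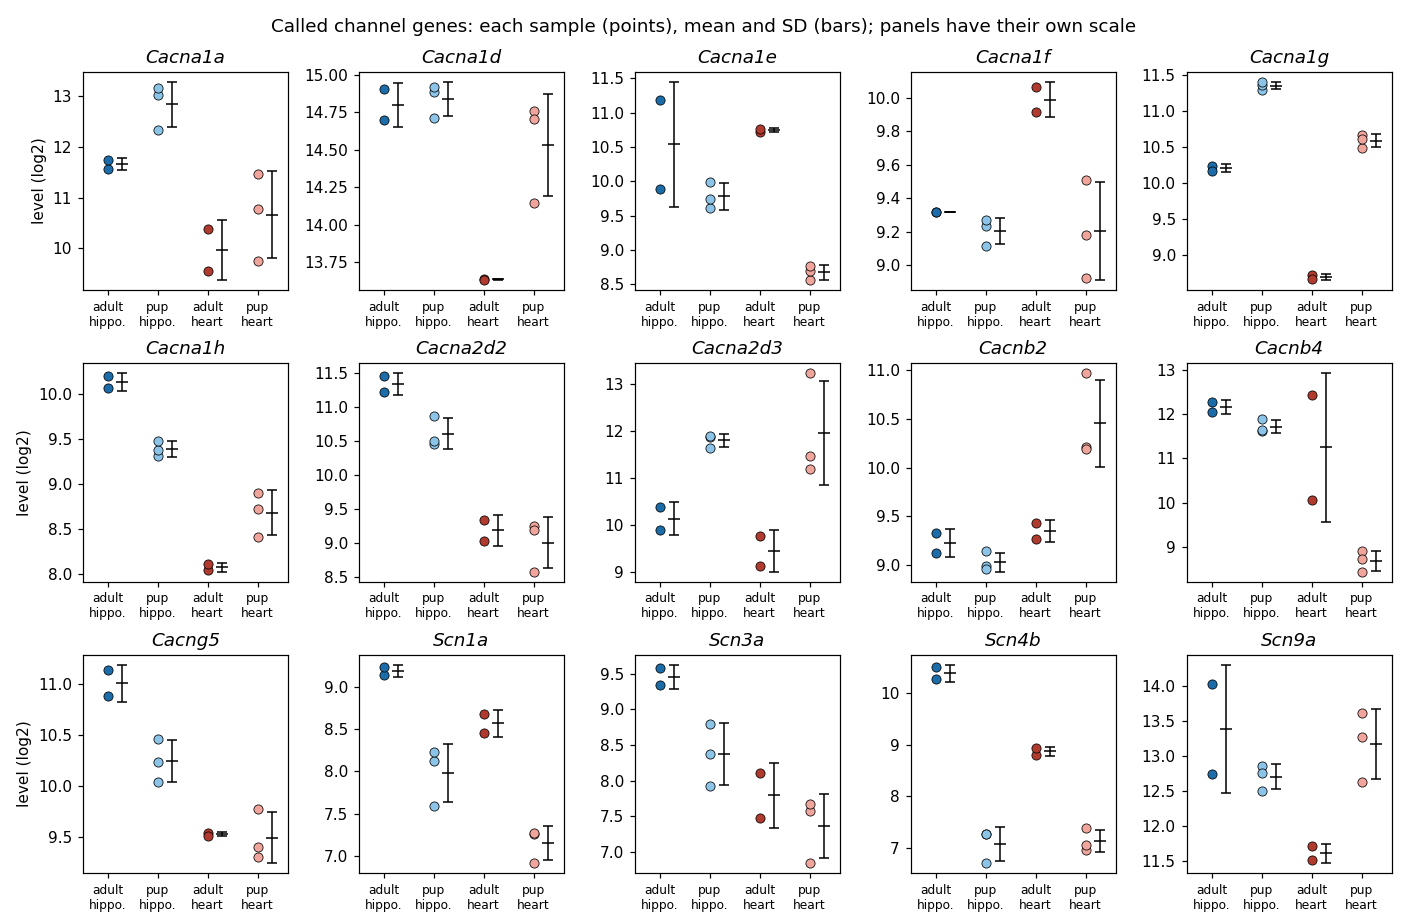
Levels on the log2 scale of the 15 channel genes called in any comparison, in adult hippocampus, pup hippocampus, adult heart and pup heart, with a point per biological sample and bars for the mean and SD (n = 2 per adult group, n = 3 per pup group). Scn4b is high in both adult tissues and at 6.70 to 7.37 in both pup tissues, and Cacna1g is lower in adults than in pups in each tissue.

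The sodium channel beta subunit Scn4b had the largest age difference of the 35 genes and a single probe set. Its product is bound to the alpha subunit by a disulfide bond and takes part in resurgent sodium current. The gene was 10.27 and 10.51 in adult hippocampus and 7.27, 6.70 and 7.26 in pup hippocampus, against 8.81 and 8.94 in adult heart and 6.96, 7.05 and 7.37 in pup heart. Pup samples of both tissues lay between 6.70 and 7.37 and overlapped, and all adult samples lay above them. Means were 10.39 ± 0.17 in adult hippocampus (SD, n = 2) and 7.08 ± 0.33 in pup hippocampus (SD, n = 3), a difference of 3.31 (SE 0.26, adjusted p = 0.000606). In heart the rise in adults was 1.75 (SE 0.26, adjusted p = 0.00268). Pup levels lay under each sample's median and were not tested against background, so no fold is given. The same limit holds for the lower groups behind the folds given above for Cacna1e, Cacnb4, Cacna1h and Cacna2d2, and for Cacna1g in heart. Both age calls held without each sample in turn.

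Between adult tissues Scn4b was higher in hippocampus by 1.52 (SE 0.28, adjusted p = 0.00608), while between pup tissues the difference was -0.05 (95% interval -0.57 to 0.47, adjusted p = 0.924). The heart age difference less the hippocampal one was -1.57 (SE 0.36, adjusted p = 0.0503), just over the threshold. Scn4b is known as a gene of striatal neurons. Of 10 measured marker genes of striatum and thalamus, 4 were higher in adult than in pup hippocampus and 0 were lower. This was 40% beside 16.1% of all genes. The 4 were Tcf7l2 by 3.58, Gbx2 by 2.89, Ppp1r1b by 1.29 and Penk by 1.27. The other genes of the list, Drd1, Drd2, Lhx9, Rgs9, Tac1 and Prkcd, were not called. The first 3 of these had negative differences, down to -1.41. The list was added after results had been seen. Penk was also 9.56 and 9.23 in adult heart, against 7.81, 7.72 and 8.13 in pup heart. The mean level of the 10 ranged over 11.0 to 11.1 in adult hippocampus and 10.2 to 10.4 in pup hippocampus. The part of tissue from these regions in the Scn4b result was not tested.

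Scn2b, the neighbour of Scn4b and also a disulfide-linked subunit, was 12.25 and 12.76 in adult hippocampus and 12.82, 12.65 and 12.44 in pup hippocampus, against 15.04 and 14.96 in adult heart and 14.62, 14.40 and 11.61 in pup heart. Adult heart lay above every other sample, and pup heart replicate 3 stood 2.79 below the next pup heart. Hippocampus minus heart was -2.49 (SE 0.83, adjusted p = 0.0640) in adults, not past the threshold, and the age difference in heart was 1.45 (SE 0.75, adjusted p = 0.211). Scn3b, which associates with alpha subunits without a covalent bond, was 13.67 and 12.60 in adult hippocampus and 12.58, 14.20 and 13.76 in pup hippocampus, against 14.06 and 13.87 in adult heart and 14.39, 13.46 and 14.18 in pup heart. All groups overlapped or nearly so, and the 4 differences lay between -0.83 and -0.05 (SE 0.46 to 0.56), with the lowest adjusted p, 0.351, in the tissue comparison in adults.

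Among the alpha subunits of sodium channels, Scn1a, the channel of inhibitory interneurons and a gene of Dravet syndrome in humans, was 9.14 and 9.24 in adult hippocampus and 7.59, 8.13 and 8.23 in pup hippocampus, against 8.46 and 8.68 in adult heart and 7.26, 7.27 and 6.91 in pup heart. Adults lay above pups in each tissue without overlap. The rise was 1.42 (SE 0.26, adjusted p = 0.00601) in heart and 1.20 (SE 0.26, adjusted p = 0.0155) in hippocampus. All levels, 6.91 to 9.24, lay under each sample's median and were not tested against background, so no fold is given. The heart call was lost without adult heart replicate 2 (adjusted p = 0.0527), and the hippocampus call without adult hippocampus replicate 1 or 2 (adjusted p = 0.0832 to 0.0905). Hippocampus was higher than heart by 0.84 (SE 0.23, adjusted p = 0.0377) in pups, lost without pup heart replicate 1, 2 or 3 or pup hippocampus replicate 2 or 3 (adjusted p = 0.0577 to 0.124), and the adult difference was 0.62 (SE 0.28, adjusted p = 0.162). The most variable probe set of Scn1a gave -0.80 for pups, so the direction between pup tissues rests on the probe set. In hippocampus the age difference was 0.39 (adjusted p = 0.371) on that probe set and -0.99 (adjusted p = 0.372) on 1441728_at.

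Scn3a, the alpha subunit best known from fetal brain, was 9.34 and 9.57 in adult hippocampus and 8.80, 8.37 and 7.93 in pup hippocampus, against 8.11 and 7.47 in adult heart and 7.57, 7.67 and 6.84 in pup heart. All hippocampus samples lay above all hearts of the same age. The difference between adult tissues was 1.66 (SE 0.39, adjusted p = 0.0174), lost without adult heart replicate 2 or adult hippocampus replicate 1 or 2 (adjusted p = 0.0611 to 0.118). In pups it was 1.01 (SE 0.32, adjusted p = 0.0657), and with age in hippocampus it was 1.09 (SE 0.36, adjusted p = 0.0692). Scn9a, an alpha subunit of pain-sensing neurons, was 14.04 and 12.74 in adult hippocampus and 12.51, 12.86 and 12.76 in pup hippocampus, against 11.52 and 11.71 in adult heart and 12.63, 13.62 and 13.27 in pup heart. Adult heart lay below every other sample. It was lower than pup heart, with a difference of -1.56 (SE 0.41, adjusted p = 0.0263), and adult hippocampus was higher than adult heart by 1.77 (SE 0.44, adjusted p = 0.0232). The heart call was lost without adult heart replicate 1 or 2 or pup heart replicate 2 or 3 (adjusted p = 0.0557 to 0.145), and the adult tissue call without adult heart replicate 1 or 2 or adult hippocampus replicate 1 (adjusted p = 0.0828 to 0.135). Without adult hippocampus replicate 1 that tissue difference was 1.13. The other 4 probe sets of Scn9a lay between -0.25 and 1.06 for age in heart and between -0.79 and 0.60 between adult tissues, with none called, and the mean over all 5 gave -0.0069 (adjusted p = 0.984) and 0.29 (adjusted p = 0.348), so both calls rest on the probe set used.

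Scn2a, the axonal alpha subunit of excitatory neurons, was 14.76 and 14.71 in adult hippocampus and 14.24, 13.89 and 13.57 in pup hippocampus, against 14.08 and 14.70 in adult heart and 14.57, 14.79 and 14.51 in pup heart. On this probe set its 4 differences lay between -0.72 and 0.83 (SE 0.25 to 0.30), with the lowest adjusted p, 0.0721, in the age comparison in hippocampus. Scn8a, the main alpha subunit at the mature node of Ranvier, was 9.95 and 9.66 in adult hippocampus and 9.75, 10.05 and 9.95 in pup hippocampus, against 10.78 and 10.80 in adult heart and 8.58, 10.44 and 9.29 in pup heart. Its 4 differences lay between -0.99 and 1.35 (SE 0.40 to 0.49), with the lowest adjusted p, 0.0635, in the age comparison in heart, and the 2 arrays of adult heart replicate 1 differed by 4.88, which leaves that sample's value weakly determined. Scn7a, a channel that senses sodium concentration, and Scn10a and Scn11a of pain-sensing neurons were not called. Scn10a and Scn11a ranged over 6.81 to 8.15 in all samples, below each sample's median level.

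Of the 32 calls on the brightest probe sets, 9 were of genes with a single probe set. For 4 of the other 23 another probe set of the gene was called in the same direction, for 19 none was, and in 12 at least 1 other probe set had the opposite sign. For several genes another probe set was called where the brightest was not. In a fit of all 34958 single-gene probe sets, 22 of the 85 channel probe sets were called between adult tissues (18 higher and 4 lower in hippocampus), beside 22.8% of all probe sets. Between pup tissues 20 were called (18 higher and 2 lower), beside 16.3%. With age, 14 were called in heart (8 higher and 6 lower in adults) beside 20.9%, and 9 in hippocampus (5 higher and 4 lower) beside 15.4%. For the difference of age differences between tissues 6 were called beside 4%. Probe sets of 1 gene share a transcript source and are not replicates, and no gene had probe sets called in opposite directions in the same comparison.

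Scn2a was the clearest case. Probe set 1435933_at was 10.01 and 10.10 in adult hippocampus and 10.63, 10.08 and 10.01 in pup hippocampus, against 5.81 and 5.97 in adult heart and 5.12, 5.94 and 4.41 in pup heart. All hippocampus samples read 10.01 or more and all hearts 5.97 or less. The difference was 4.16 (SE 0.44, adjusted p = 0.000357) in adults and 5.08 (SE 0.36, adjusted p = 1.21e-05) in pups, while the brighter probe set 1445259_at, used above, was at 13.57 to 14.79 in all samples. Probe set 1427281_at was also higher in hippocampus in adults, by 1.89 (SE 0.44, adjusted p = 0.0141), and 1427280_at in pups, by 1.71 (SE 0.31, adjusted p = 0.00448).

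Scn3b probe set 1435767_at was 11.04 and 10.80 in adult hippocampus and 12.33, 11.90 and 12.04 in pup hippocampus, against 9.41 and 9.14 in adult heart and 9.04, 9.74 and 8.65 in pup heart. Hippocampus lay above heart at both ages, by 1.64 (SE 0.36, adjusted p = 0.00984) in adults and 2.94 (SE 0.29, adjusted p = 9.98e-05) in pups. It was lower in adult than in pup hippocampus, with a difference of -1.17 (SE 0.33, adjusted p = 0.0389). Scn3a probe set 1439204_at was likewise higher in hippocampus, by 2.06 (SE 0.51, adjusted p = 0.0172) in adults and 2.44 (SE 0.41, adjusted p = 0.00289) in pups.

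Scn8a probe set 1423515_at was 10.05 and 10.42 in adult hippocampus and 9.35, 9.02 and 9.10 in pup hippocampus, against 7.81 and 7.68 in adult heart and 8.11, 8.15 and 8.31 in pup heart. Hippocampus was higher by 2.49 (SE 0.25, adjusted p = 0.000293) in adults and 0.97 (SE 0.21, adjusted p = 0.0103) in pups, and adult hippocampus was above pup hippocampus by 1.07 (SE 0.23, adjusted p = 0.0149). Probe set 1451894_a_at rose with age in hippocampus by 1.11 (SE 0.24, adjusted p = 0.0157), and 1457412_at was higher in hippocampus by 1.76 (SE 0.26, adjusted p = 0.00153) in adults and 1.96 (SE 0.21, adjusted p = 0.000165) in pups. None of these patterns appeared on the brightest probe set of Scn8a.

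**Figure D4:**
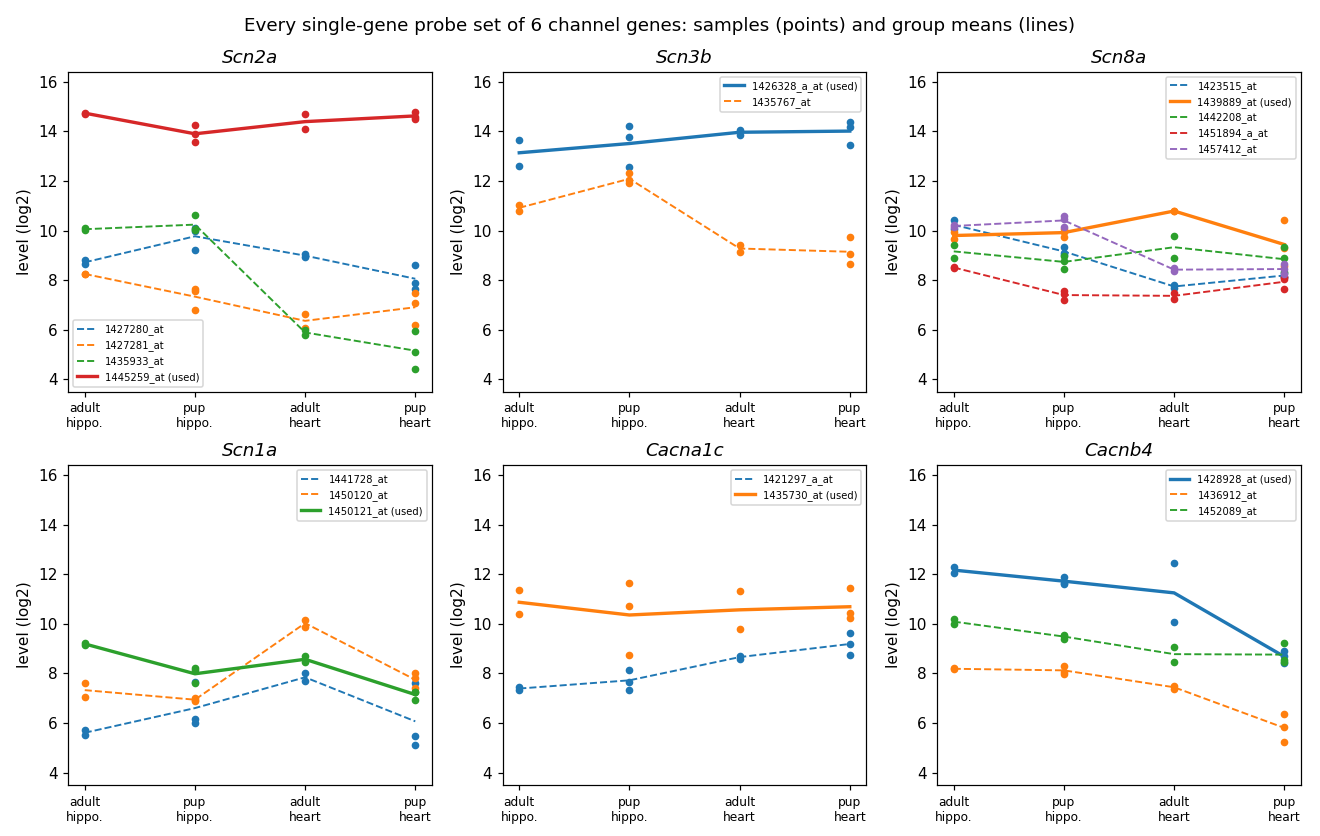
Levels on the log2 scale of every single-gene probe set of Scn2a, Scn3b, Scn8a, Scn1a, Cacna1c and Cacnb4 in adult hippocampus, pup hippocampus, adult heart and pup heart, with points for samples, lines for group means and the probe set used for the gene as the thick solid line. For Scn2a the probe set used is at 13.57 to 14.79 in all samples, while 1435933_at is at 10.01 or more in hippocampus and 5.97 or less in heart.

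Scn1a probe sets differed in their tissue order. Probe set 1450120_at was 7.04 and 7.61 in adult hippocampus and 6.88, 7.00 and 6.95 in pup hippocampus, against 10.17 and 9.88 in adult heart and 7.82, 8.02 and 7.40 in pup heart. Adult heart lay above all other samples, so that the age difference in heart was 2.28 (SE 0.27, adjusted p = 0.00101), in the same direction as on the probe set used, while hippocampus minus heart in adults was -2.70 (SE 0.30, adjusted p = 0.000422). Cacna1c probe set 1421297_a_at was 7.44 and 7.34 in adult hippocampus and 7.35, 7.67 and 8.15 in pup hippocampus, against 8.60 and 8.72 in adult heart and 8.75, 9.19 and 9.63 in pup heart. It was lower in hippocampus than in heart, with a difference of -1.27 (SE 0.35, adjusted p = 0.0283) in adults and -1.47 (SE 0.29, adjusted p = 0.00650) in pups.

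Of the 2 other Cacnb4 probe sets, 1436912_at was called as the brightest was, with 1.64 (SE 0.32, adjusted p = 0.00660) for adult minus pup in heart and 2.32 (SE 0.28, adjusted p = 0.000378) for hippocampus minus heart in pups, while 1452089_at gave 0.02 (adjusted p = 0.971) and 0.73 (adjusted p = 0.0976) and was not called. Cacna1h probe set 1422710_a_at was lower in adult than in pup heart, with a difference of -0.91 (SE 0.26, adjusted p = 0.0330). Between pup tissues Cacng2 probe set 1420596_at was higher in hippocampus by 0.90 (SE 0.19, adjusted p = 0.0107), with means of 9.61 in pup hippocampus and 8.71 in pup heart. Cacng4 probe set 1455230_at was higher there by 1.39 (SE 0.33, adjusted p = 0.0187), with means of 11.46 and 10.07 in the same groups. Between adult tissues Cacna2d1 probe set 1449999_a_at was higher in hippocampus by 0.79 (SE 0.24, adjusted p = 0.0401) and Cacna2d4 probe set 1442863_at was lower, with a difference of -1.26 (SE 0.38, adjusted p = 0.0416). Cacna1b probe set 1460608_at was higher in adult heart by 0.94 (SE 0.25, adjusted p = 0.0261) and lower in adult hippocampus, with a difference of -1.16 (SE 0.25, adjusted p = 0.0147), relative to pups, at levels of 6.15 to 7.98 that lie under each sample's median. Scn2b probe set 1457144_at was higher in adult hippocampus by 1.45 (SE 0.42, adjusted p = 0.0444), and Scn7a probe set 1427495_at was lower, with a difference of -1.27 (SE 0.27, adjusted p = 0.0144).

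Genes whose products bind, anchor or work beside these channels were counted in the same fit, 41 of 46 listed being measured. In heart 9 were higher and 4 lower in adults, 31.7% of the 41 beside 20.6% of all genes. Stac2, an adaptor that holds L-type channels at the membrane, was higher by 3.04 (SE 0.27, adjusted p = 0.000508), and Fgf12, an intracellular factor that binds sodium channel tails, by 1.72 (SE 0.25, adjusted p = 0.00266). Cnih3, Ahnak, Nedd4l, Ryr3, Stac3, Gria2 and Ryr1 were higher by 1.04 to 1.69. Lower in adult heart were the spectrin Sptbn1 with a difference of -2.97 (SE 0.26, adjusted p = 0.000469), the calcium release channel Ryr2 with -2.16 (SE 0.60, adjusted p = 0.0346), and Rrad and Rem2, small GTPases that inhibit calcium channels, with -1.45 (SE 0.24, adjusted p = 0.00455) and -1.31 (SE 0.36, adjusted p = 0.0316).

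In hippocampus 3 of the 41 were called, all lower in adults, 7.32% beside 16.1%. Cnih2, an AMPA receptor auxiliary protein, differed by -2.79 (SE 0.29, adjusted p = 0.00107), Sptbn1 by -2.71 (SE 0.26, adjusted p = 0.000873) and the AMPA receptor subunit Gria2 by -1.96 (SE 0.29, adjusted p = 0.00369). Between adult tissues 7 were higher and 6 lower in hippocampus (31.7% beside 19.7%), and between pup tissues 8 were higher and 4 lower (29.3% beside 15.7%). Gria1, Gria2, Cnih2, Jph4 and Unc80 were higher in hippocampus at both ages, with Gria1 at 4.05 (SE 0.37, adjusted p = 0.000271) in adults and 5.02 (SE 0.30, adjusted p = 7.81e-06) in pups. Rrad was lower in hippocampus than in heart at both ages, with a difference of -3.25 (SE 0.27, adjusted p = 0.000193) in adults and -4.20 (SE 0.22, adjusted p = 3.68e-06) in pups. Gria2, Stac2, Cnih2 and Stac3 had age differences that were called different between tissues, 9.76% of the 41 beside 3.68% of all genes.

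Values of neighbouring genes stood side by side as follows on the probe sets used. On chromosome 2, Scn1a was higher and Scn9a lower in adult than in pup heart, while Scn7a next to them was not called and differed by 0.51 (SE 0.40, adjusted p = 0.411). On chromosome 9, Scn4b was higher in adult heart and adult hippocampus, while Scn2b differed by 1.45 (SE 0.75, adjusted p = 0.211) in heart and -0.13 (SE 0.75, adjusted p = 0.928) in hippocampus, although its probe set 1457144_at was higher in adult hippocampus, like Scn4b. On chromosome 11, Cacng5 was higher in hippocampus at both ages, while its neighbours Cacng4 and Cacng1 were not called, with adult tissue differences of 0.64 (SE 0.44, adjusted p = 0.360) and 1.00 (SE 0.49, adjusted p = 0.193), although between pup tissues Cacng4 probe set 1455230_at was higher in hippocampus, like Cacng5. Whether any 2 of these neighbours differed from each other was not tested.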

How the data were processed

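The deposited log2 expression values covered 45101 probe sets on 14 Affymetrix 1-colour mouse arrays. Per the study's methods and the submitters' processing notes, the authors summarized probes with RMA, version 2.0, by the upper decile. The median centring and percentile scaling of the methods were not present in the deposited values and were run as an alternative, and detection calls were not used here. The series annotation of the platform gave 34958 probe sets with 1 gene, 932 with several and 9211 unnamed here. An Entrez identifier allowed a check of 34754 symbols, of which 0 changed.

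The 2 technical arrays of each adult replicate were averaged, and the 10 resulting samples entered 1 limma fit (version 3.58.1, R 4.3.3) with a mean per group, 6 residual and 3.10 prior degrees of freedom. Some labels name all 4 arrays of an adult tissue as biological replicates, a reading run as an alternative. Contrasts compared adults with pups in heart and in hippocampus, hippocampus with heart in adults and in pups, and the heart age difference with the hippocampal one. Tests were two-sided, with Benjamini-Hochberg adjustment over all genes or probe sets and a threshold of 0.05, and "higher", "lower", "rose" and "called" refer to it. Precision is limited by the number of arrays, and the median SE of a channel gene was 0.36 for age, 0.39 between adult tissues, 0.32 between pup tissues and 0.50 for the difference of age differences.

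The genes, roles, partner list and marker lists were chosen with earlier results of these data known, and the list of striatum and thalamus markers was added after results had been seen. Per-sample values were given for called genes and for a list of well-known subunits whether or not they passed, and other genes by range. Random blocks were fitted with statmod 1.5.0. Sequences are RefSeq promoter windows of GRCm38.p6, and figures were drawn with matplotlib 3.10.9.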

Additional observations from a re-analysis of the deposited data

Results flagged for a closer look

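Several age differences were called different between heart and hippocampus, and no explanation was tested for any of them. The values are log2 age differences (adult minus pup) of heart less those of hippocampus. Among the channel genes themselves this contrast was called for Cacna1h, with -1.35 (adjusted p = 0.0494, heart -0.60 and hippocampus 0.74), a call lost without each of 9 of the 10 samples in turn and a difference of -0.10 (adjusted p = 0.907) on its other probe set.

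In the fit of all probe sets the contrast was called for Cacna1b 1460608_at with 2.10 (heart 0.94, hippocampus -1.16), for Scn9a 1442810_x_at with 2.14 (heart 1.06, hippocampus -1.08), and for Scn1a 1450120_at with 1.90 (heart 2.28, hippocampus 0.39). It was also called for Scn4b 1434008_at with -1.57 (heart 1.75, hippocampus 3.31), which missed the threshold in the fit of 1 probe set per gene, and for Scn8a 1423515_at with -1.52 and 1451894_a_at with -1.68, where heart was -0.44 and -0.57 and hippocampus 1.07 and 1.11.

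Among partner genes it was 3.11 for Gria2 (heart 1.16, hippocampus -1.96), 2.15 for Stac2 (heart 3.04, hippocampus 0.89), 2.02 for Cnih2 (heart -0.77, hippocampus -2.79) and 1.62 for Stac3 (heart 1.46, hippocampus -0.16).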

How the results depend on the processing

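Of the 32 calls on channel genes, 5 held in every alternative run: Cacna1e and Cacna1g in the heart age comparison, Cacna1g and Scn4b in that of hippocampus, and Cacnb4 between pup tissues. Cacna1g and Scn4b have 1 probe set each, so alternatives that change the probe set left their values as they were. The other Cacna1e probe set gave 0.12 (adjusted p = 0.856, limma) for age in heart, and no alternative used it alone. The other 27 were lost in at least 1 alternative, 17 of them on leaving out a single sample, a step that also leaves fewer samples. Leaving out each sample in turn gave 5 to 9 called genes for age in heart, 2 to 3 for age in hippocampus, 5 to 8 between adult tissues, 4 to 7 between pup tissues and 0 to 1 for the difference of age differences (6 to 9 at an unadjusted p under 0.05 where limma called 0).

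The counts below stand without the share of all genes called in the same setting, so a rise or fall cannot be read as particular to channel genes. With the most variable probe set per gene, 14 genes were called between adult tissues and 2 for the difference of age differences. Directions then turned for Cacna1d in heart (0.55) and between adult tissues (-0.50), and for Scn1a between pup tissues (-0.80). Without cross-hybridizing probe sets Cacna1d turned in the same way (0.55 and -0.50), and 0 genes were called for the difference of age differences (9 unadjusted, limma). With the mean over probe sets, 2 were called for age in hippocampus, and Cacna1h turned there (-0.033). With any probe set counted, a gene with several probe sets had several chances to be called. The numbers were then 8 for age in hippocampus, 18 between adult tissues, 17 between pup tissues and 5 for the difference of age differences. After a filter on low values the last was 2.

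Treating the adult arrays as 4 samples gave 9 for age in hippocampus, 15 between adult tissues and 3 for the difference of age differences. A random block of technical arrays gave 7, 14 and 3. Counts in this section stand without the share of all genes called in the same setting. They do not compare channel genes with other genes. A fit of only the 2 groups gave 5 for age in heart. The methods' t-test after Benjamini-Hochberg adjustment at the same threshold gave 2 for age in heart, 2 for age in hippocampus, 0 between adult tissues (12 unadjusted) and 3 between pup tissues, and at the false discovery rate of 0.1% in the methods it called 0 in all 4 comparisons, with 10 to 12 genes at an unadjusted p under 0.05.

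With the replicate number as a block, counts were 8 for age in heart, 3 for age in hippocampus, 8 between adult tissues, 4 between pup tissues and 0 for the difference of age differences (11 unadjusted, limma). Deviations from group means correlated at 0.20, -0.09 and 0.00 between pup tissues for samples with the same number. For samples with different numbers the correlations were -0.16 to 0.17. So few pairs cannot show whether samples with the same number came from the same animal. Median centring shifted the median difference of all genes by -0.15 in heart and by 0.11 between adult tissues, and the methods' scaling by -0.13 in heart, and neither turned a called direction. Depth is unknown for arrays, and levels near the array maximum or below the sample median bound what a difference can show.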

Other observations

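Marker genes of other cell types gave these counts in the same fit, and no list was tested as a set. Of all genes, 20.6% were called with age in heart and 16.1% with age in hippocampus. Between adult tissues 19.7% of all genes were called, and between pup tissues 15.7%. For interneurons, in which Scn1a is prominent, 2 of 5 measured genes were higher in hippocampus than in heart in adults and 2 of 5 in pups, and none of the 5 was called with age in hippocampus. Of 4 measured genes of the heart conduction system, where Cacna1d and the T-type genes work, 1 was higher and 1 lower in adult than in pup heart. Of 4 endothelial genes, 3 were lower in adult heart, and their mean level ranged over 10.6 in both adult hearts and 12.6 to 13.0 in pup hearts. Of 4 smooth muscle genes, 1 was higher and 2 were lower in adult heart. Of 5 measured genes of peripheral neurons and Schwann cells, 2 were lower in adult heart.

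In hippocampus, 5 of 10 neuron genes were lower and 1 was higher in adults, 1 of 6 measured oligodendrocyte lineage genes was higher and 1 lower, and 1 of 5 astrocyte genes was higher and 1 lower. Of 10 cardiomyocyte genes, 4 were lower in adult than in pup heart and 2 in adult than in pup hippocampus. The part of cell composition in the channel results was not tested.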
